A study of Homo sapiens with 16 samples.

Results

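Ubiquitin and the VCP machinery that hands ubiquitylated proteins to the proteasome were examined through 8 genes. UBB and RPS27A encode ubiquitin precursors, and UFD1 and NPLOC4 encode the subunits of the main adaptor of VCP. The others were VCP itself, the zinc finger genes ZFAND2A and ZFAND5, and RAD23B, which encodes a carrier of ubiquitylated proteins. These 8 genes were chosen by name, with earlier results of these data known. Their probes were found by matching the RefSeq transcript given for each probe to the gene symbols. All 8 genes were found, through 12 probes, among the 20503 symbols that could be matched and the 50599 gene probes of the array. RNA came from LP-1, a human multiple myeloma cell line, measured on 16 one-colour Agilent 8x60K expression arrays. LP-1-cIAP2-eGFP cells carried a lentiviral vector for cIAP2, the inhibitor of apoptosis protein encoded by BIRC3, with eGFP as a second product of that vector. The control cells, LP-1-eGFP, carried the same vector with eGFP alone. Each line was left untreated or received 10 nM of the proteasome inhibitor bortezomib and was harvested after 6 h or 24 h, with 2 biological replicates in each of the 8 conditions. Both lines were selected for eGFP and each stands for 1 transduced cell population, so a difference between them is a difference between those populations.

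Ubiquitin is never translated as a single free molecule. UBB encodes a chain of ubiquitin repeats, and RPS27A encodes 1 ubiquitin fused to a ribosomal protein, both of which are cut into free ubiquitin. VCP is an ATPase that, with the UFD1 and NPLOC4 pair, pulls ubiquitylated proteins out of membranes and complexes and unfolds them before the proteasome. RAD23 proteins carry ubiquitylated proteins to the proteasome, and some zinc finger proteins of the ZFAND family bind ubiquitin, VCP or the proteasome. Plasma cells make large amounts of secreted protein and lean heavily on this disposal route, which is one proposed reason that myeloma cells are sensitive to proteasome inhibitors.

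A few checks on the arrays come first. BIRC3, the overexpressed gene, read lower in the LP-1-cIAP2-eGFP line, by 1.16 on the log2 scale (SE 0.08, adjusted p = 7.42e-06 by limma). The array's probe lies in the 3′ untranslated region and, per the study's methods, detects only the endogenous transcript, so this value checks nothing about the transgene. The study reports raised cIAP2 mRNA by quantitative PCR and raised protein by western blot in these cells. Among the 7 plasma cell markers, 6 were well above background on all 16 arrays by their brightest probe and PRDM1 on 15, and the median level was 13.92 on the log2 scale. The B cell markers MS4A1 and PAX5 were above background on none of the arrays. No marker of T cells, NK cells or myeloid cells was above background on every array, whereas the epithelial gene KRT18 was. Several were above it on most arrays: CD2 on 15, CD14 on 13, CD3D on 12, and CD3E and ITGAM on 10 each. NKG7 was above background on 5 arrays and CSF1R on 0. One array, replicate 1 of bortezomib-treated LP-1-cIAP2-eGFP at 24 h, stood apart: its median log2 signal before normalization was 3.18 against 5.71 to 6.55 on the others, and 35.5% of its gene spots were well above background against 49.0% to 71.1%. The 24 h responses of LP-1-cIAP2-eGFP rest on this dim array, and those of the 8 genes, by their brightest probe, and of the list genes called below are also given without it. Leaving it out keeps only replicate 2 in that condition, so the spread for such a fit comes from the other conditions. The arrays lay on 2 slides, and slide 1 held 6 of the 8 arrays of LP-1-cIAP2-eGFP. The 12 probes of the 8 genes were above background on all 16 arrays and none was saturated. The RNA came from whole cultures, in which a change in the share of cells that express a gene and a change in RNA per cell cannot be told apart.

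A gene was called changed when the Benjamini-Hochberg adjusted p of the limma fit over all 33731 tested probes was under 0.05. At 6 h of bortezomib 3 of the 8 genes were higher in LP-1-eGFP, against a background of 1.26% of tested probes called higher and 0.691% called lower. The same 3 genes, VCP, ZFAND2A and ZFAND5, were called higher at 6 h in LP-1-cIAP2-eGFP, where 0.762% of probes were called higher and 0.323% lower. At 24 h UFD1 and NPLOC4 joined them, giving 5 of 8 genes in LP-1-eGFP (background 9.81% higher, 11.2% lower). In LP-1-cIAP2-eGFP at 24 h UBB was called as well, giving 6 of 8 genes (background 11.1% higher, 17.5% lower). None of the 8 genes was called lower after bortezomib at either time in either line. Their median log2 difference at 24 h was 1.17 in LP-1-eGFP and that of LP-1-cIAP2-eGFP was 1.13, beside medians over all tested probes of -0.03 and -0.16.

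**Figure D1:**
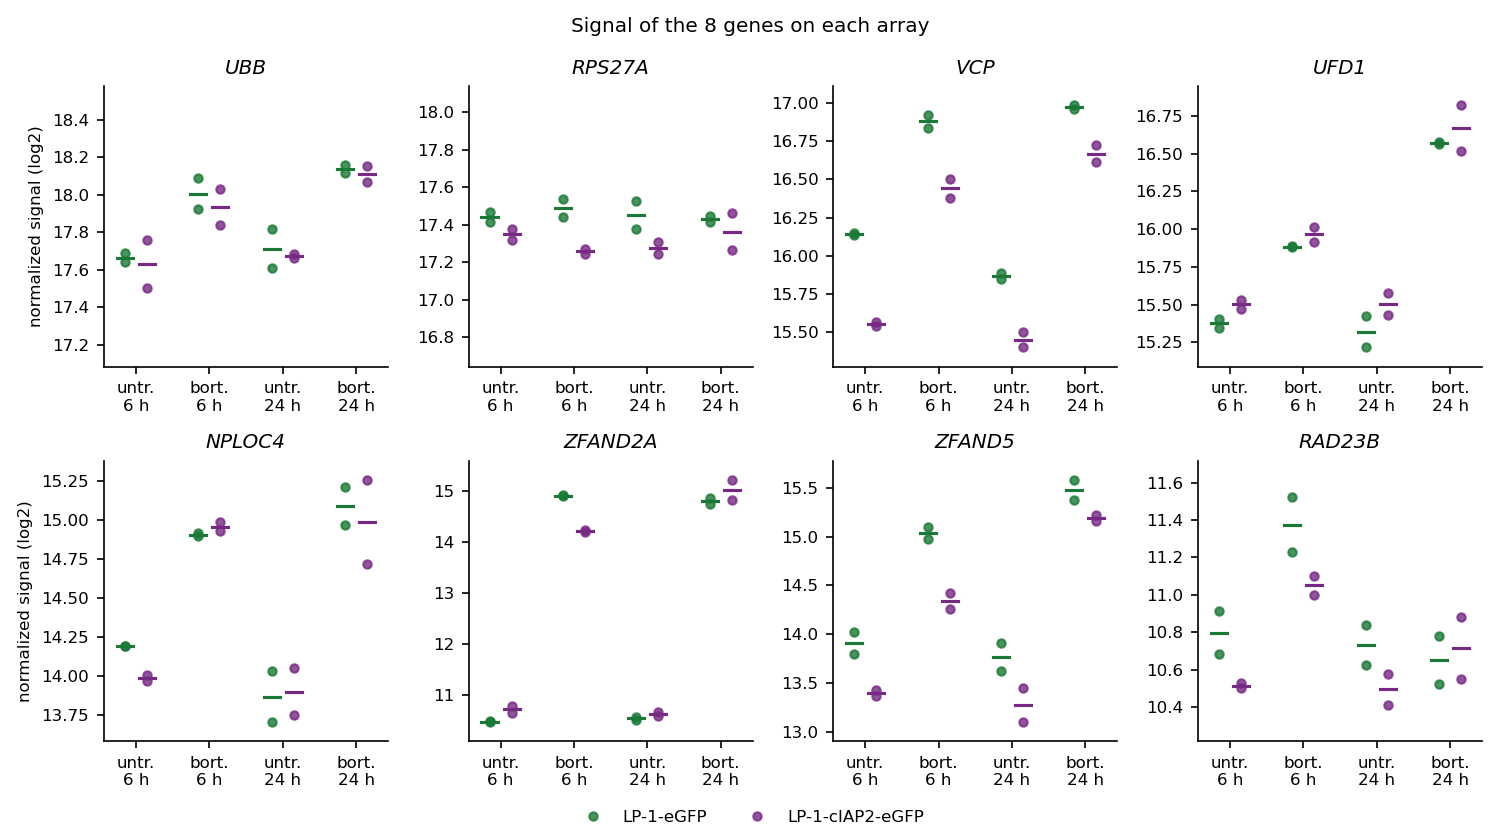
Normalized log2 signal (y axis, a separate range for each gene) of the brightest probe of each of the 8 genes on each of the 16 arrays. Points are arrays, 2 per condition, short lines are condition means, green is LP-1-eGFP and purple LP-1-cIAP2-eGFP; ZFAND2A moves from about 10.5 untreated to 14.2 or more with bortezomib, and RPS27A stays between 17.25 and 17.54.

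ZFAND2A, also known as AIRAP, an arsenite-inducible protein that associates with the proteasome, had the widest range of the 8 genes. In untreated LP-1-eGFP its normalized log2 signal was 10.48 and 10.47 at 6 h and 10.58 and 10.51 at 24 h. With bortezomib the LP-1-eGFP arrays read 14.93 and 14.90 at 6 h and 14.74 and 14.86 at 24 h. In untreated LP-1-cIAP2-eGFP the arrays read 10.66 and 10.78 at 6 h and 10.58 and 10.67 at 24 h. All untreated arrays thus lay between 10.47 and 10.78, and no treated array came near them. With bortezomib the LP-1-cIAP2-eGFP arrays read 14.20 and 14.23 at 6 h and 14.83 (the dim array) and 15.22 at 24 h. The rise at 6 h was 21.6-fold in LP-1-eGFP (log2 4.43, SE 0.15, adjusted p = 2.41e-06) and 11.3-fold in LP-1-cIAP2-eGFP (log2 3.50, SE 0.15, adjusted p = 1.77e-05). At 24 h it was 19.2-fold (log2 4.26, SE 0.15, adjusted p = 7.99e-07) and 21.1-fold (log2 4.40, SE 0.15, adjusted p = 4.16e-07). Without the dim array the latter was 4.59 on the log2 scale (adjusted p = 2.3e-06). In order of level, the 4 untreated conditions had means between 10.48 and 10.72, followed by treated LP-1-cIAP2-eGFP at 6 h with 14.22 ± 0.02 (SD, n = 2), and the other 3 treated conditions had means between 14.80 and 15.02. Among the untreated conditions, the arrays of LP-1-cIAP2-eGFP at 6 h and 24 h overlapped. Among the 3 highest conditions the arrays of LP-1-cIAP2-eGFP at 24 h spanned those of LP-1-eGFP at 6 h.

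The 6 h response of ZFAND2A was smaller in LP-1-cIAP2-eGFP than in LP-1-eGFP by 0.94 on the log2 scale as fitted, with a 95% interval from -1.41 to -0.47 for the difference of responses. The unadjusted p was 0.00129 and the adjusted p was 1, in a comparison for which 0.00297% of all tested probes, that is 1 probe, were called. The difference thus failed the correction. At 24 h the corresponding difference of responses was 0.14 (95% interval -0.33 to 0.61, adjusted p = 0.799). At 6 h of bortezomib both LP-1-cIAP2-eGFP arrays lay on slide 1, and both LP-1-eGFP arrays on slide 2. With the slide as a block the difference was -0.85 (adjusted p = 1).

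Because ZFAND2A, ZFAND5 and VCP were called higher at both times in both lines, the 250 bases before their transcription starts were searched for letters known from stress-responsive promoters, on both strands. RefSeq windows (GRCh38.p14) were matched for 7 of the 8 genes, UFD1 being named only. The heat shock element, bound by heat shock factors, was searched as TTCNNGAA, as GAANNTTC and as the longer form in which both overlap by sharing their TTC. The core of the antioxidant response element, bound by NRF proteins, was searched as TGACNNNGC. The matches in the 3 genes are shown with 10 bases on either side, read along the gene's strand, and capitals mark the fixed letters of each motif.
ZFAND2A, heat shock element, chr7:1160350-1160377, minus strand: gaccggacacTTCgaGAAgggaagtgga
ZFAND2A, antioxidant core, chr7:1160390-1160418, minus strand: cgcctcactgTGACccaGCaagcgcgccg
VCP, antioxidant core, chr9:35072796-35072824, minus strand: tgcggccaatTGACgtgGCgttactaggc
ZFAND5, antioxidant core, chr9:72365336-72365364, minus strand: ctggacctacTGACaggGCaccgggggcg
ZFAND5, antioxidant core on the opposite strand, chr9:72365304-72365332, minus strand: ccttgggcccGCgacGTCAccgcgctccc
The heat shock match of ZFAND2A lay 171 to 164 bases before the start and its antioxidant core 212 to 204 bases before it. A gene had 1 window for each start listed, which was 1 for ZFAND2A and VCP, 2 for UBB and NPLOC4 and 3 for ZFAND5, RPS27A and RAD23B, and the ZFAND5 matches lay in 1 of its 3. TTCNNGAA occurred in 6.62% and GAANNTTC in 5.78% of all 35116 RefSeq windows of this length, the longer form in 0.441% and TGACNNNGC in 10.9%. Counted per gene over all its windows, these shares were 8.12%, 7.05%, 0.557% and 13.2% of 27305 genes. UBB held 1 antioxidant core, and RPS27A, NPLOC4 and RAD23B held none of these letters in their windows. A match of letters is a description of the sequence and no measurement of binding.

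ZFAND5, a ubiquitin-binding zinc finger protein that associates with the proteasome, rose in both lines and more at 24 h than at 6 h. Its brightest probe read 14.02 and 13.80 in untreated LP-1-eGFP at 6 h and 15.10 and 14.98 with bortezomib. At 24 h the LP-1-eGFP arrays read 13.91 and 13.63 untreated and 15.58 and 15.38 treated. In LP-1-cIAP2-eGFP the arrays read 13.37 and 13.44 untreated and 14.42 and 14.26 treated at 6 h. Treated and untreated arrays did not overlap in any of these sets, and the LP-1-cIAP2-eGFP arrays lay below the LP-1-eGFP arrays of the same treatment and time. At 24 h the LP-1-cIAP2-eGFP arrays read 13.45 and 13.10 untreated and 15.22 (the dim array) and 15.16 treated. The response was 2.18-fold at 6 h (log2 1.13, SE 0.17, adjusted p = 0.0123) and 3.27-fold at 24 h (log2 1.71, SE 0.17, adjusted p = 0.000133) in LP-1-eGFP. It was 1.92-fold at 6 h (log2 0.94, SE 0.17, adjusted p = 0.0368) and 3.77-fold at 24 h (log2 1.92, SE 0.17, adjusted p = 5.33e-05) in LP-1-cIAP2-eGFP. Averaged over the lines, the log2 response at 24 h exceeded that at 6 h by 0.78 (SE 0.17, adjusted p = 0.0137), a comparison in which 6.16% of tested probes were called higher and 8.78% lower. The other 2 ZFAND5 probes gave larger 24 h responses, between 2.48 and 2.80 on the log2 scale, and all 3 probes were called at 24 h in both lines. At 6 h these 2 probes were called in LP-1-eGFP (adjusted p = 0.0292 and 0.0163). In LP-1-cIAP2-eGFP at 6 h neither was called (log2 1.11 and 1.02, adjusted p = 0.0719 and 0.0626), so the call there rests on the brightest probe. The gain from 6 h to 24 h was 0.38 and no longer called with 75th percentile scaling (adjusted p = 0.19), and the call was also lost with array weights (adjusted p = 0.0538). Without the dim array the 24 h response in LP-1-cIAP2-eGFP was 1.88 (adjusted p = 0.000241).

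VCP, the ATPase itself, rose in both lines at both times. In LP-1-eGFP its log2 signal was 16.15 and 16.14 untreated and 16.84 and 16.92 with bortezomib at 6 h. At 24 h the LP-1-eGFP arrays read 15.85 and 15.89 untreated and 16.99 and 16.96 treated. The treated arrays of LP-1-eGFP all lay above its untreated arrays. In LP-1-cIAP2-eGFP the arrays read 15.54 and 15.56 untreated and 16.38 and 16.50 treated at 6 h. At 24 h they read 15.50 and 15.40 untreated and 16.61 (the dim array) and 16.73 treated. The response was 1.67-fold (log2 0.74, SE 0.12, adjusted p = 0.0164) and 1.86-fold (log2 0.89, SE 0.12, adjusted p = 0.00985) at 6 h in LP-1-eGFP and LP-1-cIAP2-eGFP. At 24 h it was 2.16-fold (log2 1.11, SE 0.12, adjusted p = 0.000195) and 2.33-fold (log2 1.22, SE 0.12, adjusted p = 8.73e-05). The 24 h value in LP-1-cIAP2-eGFP was 1.28 without the dim array (adjusted p = 0.000119). Ordered by level, the condition means of VCP ran from 15.45 in untreated LP-1-cIAP2-eGFP at 24 h to 16.97 in LP-1-eGFP with bortezomib at 24 h, and the arrays of neighbouring conditions in that order did not overlap.

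The 6 h calls of VCP and ZFAND5 rested on every array of their own comparison. Without any single one of the 4 arrays compared, the adjusted p of VCP at 6 h was between 0.126 and 0.162 in LP-1-eGFP and between 0.0624 and 0.0907 in LP-1-cIAP2-eGFP, with log2 differences from 0.69 to 0.95. For ZFAND5 it was between 0.0772 and 0.143 in LP-1-eGFP and between 0.1 and 0.245 in LP-1-cIAP2-eGFP, with log2 differences from 0.86 to 1.24. The ZFAND5 call in LP-1-cIAP2-eGFP at 6 h was also lost, with adjusted p from 0.0538 to 0.0783, when any of the 4 bortezomib arrays or either 6 h untreated array of LP-1-eGFP was left out. Without a filter on signal VCP was lost in both lines (adjusted p = 0.0824 and 0.0503) and ZFAND5 in LP-1-cIAP2-eGFP (adjusted p = 0.107). The 75th percentile scaling also ended both VCP calls (adjusted p = 0.078 and 0.072). Blocking on slide removed VCP in LP-1-eGFP (adjusted p = 0.0531) and ZFAND5 in LP-1-cIAP2-eGFP (adjusted p = 0.114).

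**Figure D2:**
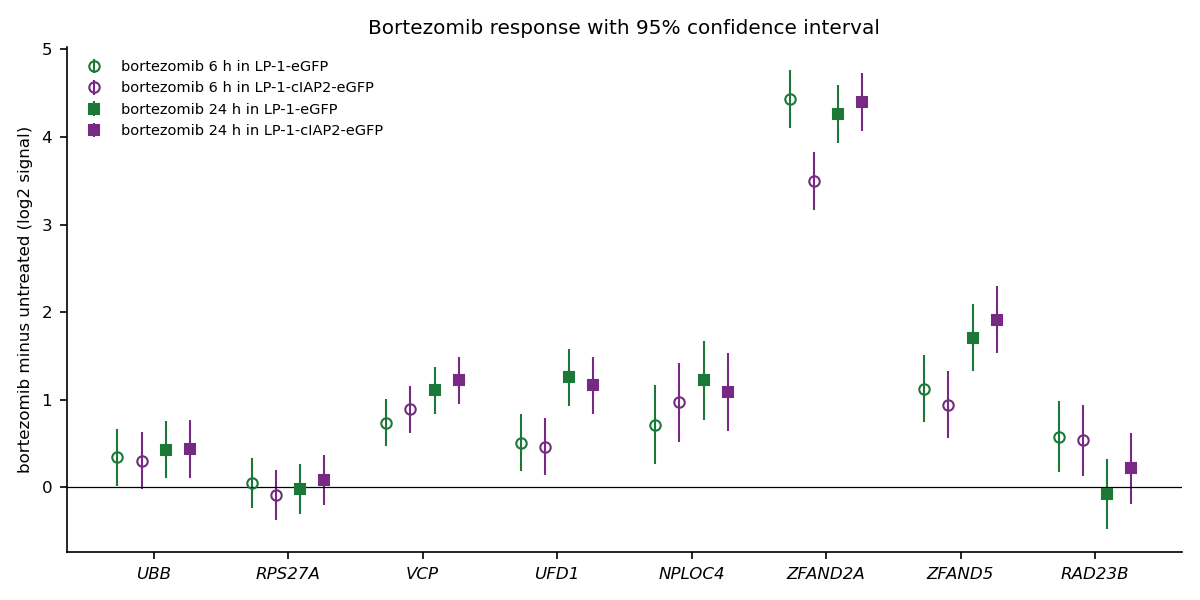
Log2 difference in normalized signal between bortezomib and untreated arrays (y axis) for the brightest probe of each of the 8 genes, with 95% confidence intervals from the limma fit; open circles are 6 h and filled squares 24 h. ZFAND2A stands at 3.50 to 4.43, ZFAND5, VCP, UFD1 and NPLOC4 at 1.09 to 1.92 at 24 h, and the intervals of RPS27A cross 0 throughout.

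UFD1 and NPLOC4, which together form the adaptor that recruits ubiquitin chains to VCP, rose alongside VCP at 24 h in both lines. UFD1 read 15.22 and 15.42 untreated and 16.58 and 16.57 treated at 24 h in LP-1-eGFP. In LP-1-cIAP2-eGFP it read 15.43 and 15.58 untreated and 16.52 (the dim array) and 16.82 treated. Treated and untreated arrays were separated by about 1 log2 unit in each line. The 24 h response of UFD1 was 2.39-fold in LP-1-eGFP (log2 1.25, SE 0.14, adjusted p = 0.000273) and 2.24-fold in LP-1-cIAP2-eGFP (log2 1.16, SE 0.14, adjusted p = 0.000311). At 6 h treated arrays of UFD1 lay above untreated ones in both lines, a separation of 2 arrays from 2 that is no test. The 6 h log2 differences of 0.51 and 0.46 did not pass the test (adjusted p = 0.131 and 0.219). Both passed with detection on all arrays (adjusted p = 0.0198 and 0.043) and with array weights (adjusted p = 0.0016 and 0.032). The LP-1-eGFP difference at 6 h was also called when either treated 24 h array of LP-1-cIAP2-eGFP was left out. The 24 h response averaged over the lines exceeded the 6 h response by 0.72 on the log2 scale (SE 0.14, adjusted p = 0.00871). That call was lost with 75th percentile scaling (0.47, adjusted p = 0.279) and with normexp background correction (0.54, adjusted p = 0.217). Without the dim array the 24 h response of UFD1 in LP-1-cIAP2-eGFP was 1.32 (adjusted p = 0.000187). The number of genes called for 24 h against 6 h then went from 2 to 5 of the 8, while the probes called over the whole array went from 5038 to 7548. VCP at 0.38 (adjusted p = 0.0261), ZFAND2A at 0.46 (adjusted p = 0.013) and the brightest RAD23B probe at -0.57 (adjusted p = 0.0373) were the genes added. With all arrays the second RAD23B probe was at 0.44 in this comparison (adjusted p = 0.161), so no direction is given for RAD23B. A second UFD1 probe gave 24 h log2 differences of 1.43 and 1.39.

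NPLOC4 read 14.03 and 13.70 untreated and 15.21 and 14.97 treated at 24 h in LP-1-eGFP. In LP-1-cIAP2-eGFP it read 14.05 and 13.75 untreated and 15.26 (the dim array) and 14.72 treated. The groups did not overlap, but the pairs of replicates lay further apart than those of VCP. The response was 2.33-fold in LP-1-eGFP (log2 1.22, SE 0.20, adjusted p = 0.00201) and 2.13-fold in LP-1-cIAP2-eGFP (log2 1.09, SE 0.20, adjusted p = 0.00302). Without the dim array the latter was 0.82 (adjusted p = 0.0102). At 6 h the log2 differences were 0.72 and 0.97 and missed the threshold (adjusted p = 0.127 and 0.0613). Both were called with 75th percentile scaling (adjusted p = 0.0326 and 0.0241) and with normexp (adjusted p = 0.0358 and 0.0285). They were also called with detection on all arrays (adjusted p = 0.0289 and 0.0108) and with array weights (adjusted p = 0.00129 and 0.00483). Leaving out either treated 24 h array of LP-1-cIAP2-eGFP, the dim array or the other, made both called at unchanged log2 differences.

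The ubiquitin precursor genes among the 8 gave smaller differences. UBB read 17.64 and 17.69 untreated and 17.93 and 18.09 treated at 6 h in LP-1-eGFP, and 17.61 and 17.82 untreated and 18.12 and 18.16 treated at 24 h. In LP-1-cIAP2-eGFP at 24 h it read 17.66 and 17.68 untreated and 18.07 (the dim array) and 18.15 treated. Treated arrays lay above untreated arrays in both lines at both times. The log2 difference at 24 h was 0.43 in LP-1-eGFP (SE 0.15, adjusted p = 0.0674) and 0.44 in LP-1-cIAP2-eGFP (SE 0.15, adjusted p = 0.0493). Only the latter was called, and the call was lost when any array was left out other than the 2 untreated 24 h arrays of LP-1-eGFP. Adjusted p was then between 0.0572 and 0.165, and the value without the dim array was 0.48. In LP-1-eGFP the opposite happened: UBB became called when either treated 24 h array of LP-1-cIAP2-eGFP, the dim one included, was left out (adjusted p = 0.0353), with detection required on all arrays (adjusted p = 0.0132) and with the replicate block (adjusted p = 0.0271). Neither line's UBB call at 24 h was thus stable, and no difference between the lines is read from it. The size of the UBB response also depended on the scaling: in LP-1-cIAP2-eGFP at 24 h it was 0.21 after normexp background correction and 0.88 after scaling to the 75th percentile.

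RPS27A, whose product is cut into ubiquitin and a protein of the small ribosomal subunit, read between 17.25 and 17.54 on all 16 arrays, with a median of 17.40. Its log2 difference was 0.05 and -0.09 at 6 h and -0.02 and 0.09 at 24 h in LP-1-eGFP and LP-1-cIAP2-eGFP. The 95% interval at 24 h ran from -0.31 to 0.26 in LP-1-eGFP and from -0.20 to 0.37 in LP-1-cIAP2-eGFP. None of these passed the test. Leaving out the dim array put the 24 h difference in LP-1-cIAP2-eGFP at -0.01 (adjusted p = 0.959).

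RAD23B, which carries ubiquitylated proteins to the proteasome and also takes part in DNA repair, gave answers that differed by probe. Its brightest probe read 10.91 and 10.68 untreated and 11.52 and 11.23 treated at 6 h in LP-1-eGFP, and 10.84 and 10.62 untreated and 10.78 and 10.53 treated at 24 h. In LP-1-cIAP2-eGFP it read 10.53 and 10.50 untreated and 11.10 and 10.998 treated at 6 h. On this probe treated arrays lay above untreated ones at 6 h and overlapped with them at 24 h in LP-1-eGFP. The log2 difference was 0.58 and 0.54 at 6 h (adjusted p = 0.177 and 0.263) and -0.08 and 0.22 at 24 h (adjusted p = 0.851 and 0.389), the last of which was 0.05 without the dim array. The dimmer second probe, A_33_P3312039, read 9.73 and 9.36 untreated and 10.50 and 10.21 treated at 24 h in LP-1-eGFP. In LP-1-cIAP2-eGFP it read 9.18 and 9.15 untreated and 10.13 (the dim array) and 9.79 treated. On that probe the 24 h difference was called in both lines, at 0.81 (SE 0.19, adjusted p = 0.0115) and 0.79 (SE 0.19, adjusted p = 0.0104). No direction is given for RAD23B at 24 h, since the 2 probes disagreed.

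**Figure D3:**
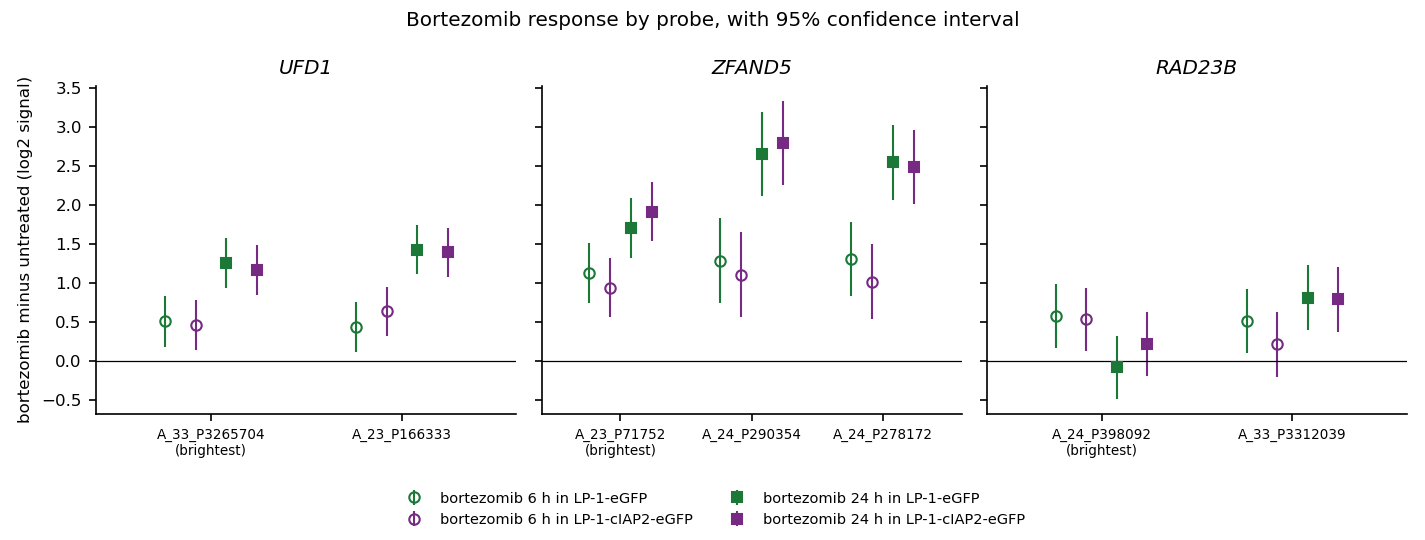
Log2 difference between bortezomib and untreated arrays (y axis) with 95% confidence intervals for each probe of the 3 genes that had several probes; open circles are 6 h and filled squares 24 h. The ZFAND5 probes differ in size but not in direction, whereas the brightest RAD23B probe is at -0.08 and 0.22 at 24 h and the other at 0.81 and 0.79.

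The lines were then compared with each other, averaged over treatment and time. VCP and ZFAND5 were lower in LP-1-cIAP2-eGFP, 2 of the 8 genes, against 9.84% of tested probes called lower and 6.26% called higher. VCP was 1.36-fold lower (log2 -0.44, SE 0.06, adjusted p = 0.000802), and each of the 8 LP-1-cIAP2-eGFP arrays lay below both LP-1-eGFP arrays of the same treatment and time. ZFAND5 was 1.41-fold lower (log2 -0.50, SE 0.09, adjusted p = 0.0032), and its other 2 probes gave -0.54 and -0.57, both called. For ZFAND5 too, both LP-1-cIAP2-eGFP arrays lay below both LP-1-eGFP arrays in each of the 4 settings. The second RAD23B probe was called lower as well (log2 -0.46, adjusted p = 0.00755), while the brightest one was at -0.20 (adjusted p = 0.196). The differences for the other 5 genes lay between -0.14 and 0.12 and none was called. Without the dim array VCP was at -0.42 and ZFAND5 at -0.51, both still called, and RPS27A was called as well, at -0.17 (adjusted p = 0.0461).

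Line and slide were unevenly mixed, so the line difference was also taken within a slide at the same treatment and time. For VCP it was -0.60 and -0.32 on slide 1 (untreated at 6 h and treated at 24 h) and -0.59 and -0.47 on slide 2 (untreated at 6 h and at 24 h). For ZFAND5 the same comparisons gave -0.43 and -0.39 on slide 1 and -0.59 and -0.67 on slide 2. With the slide as a block the fitted differences were -0.45 for VCP (adjusted p = 0.0087) and -0.53 for ZFAND5 (adjusted p = 0.0189). A plain comparison of 8 against 8 arrays, which leaves treatment and time in the error, called neither (adjusted p = 0.445 and 0.583).

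No gene of the 8 responded to bortezomib in a way that differed between the lines by the adjusted p, at 6 h or at 24 h, where 0.0712% of tested probes were called. At an unadjusted p under 0.05 there was 1 of 8 at 6 h, ZFAND2A, and 0 at 24 h, where 2.05% and 8.1% of all tested probes passed that limit. The 95% intervals of the difference in the 24 h response were from -0.27 to 0.49 for VCP, -0.55 to 0.37 for UFD1, -0.77 to 0.50 for NPLOC4 and -0.34 to 0.75 for ZFAND5. With 2 arrays per condition, differences inside these intervals could not be told from none.

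The wider set of VCP and its known cofactors, 35 genes of which 34 were tested, showed how VCP, UFD1 and NPLOC4 stood among their partners. At 24 h 19 were called higher and 2 lower in LP-1-eGFP. The counts were 16 and 1 in LP-1-cIAP2-eGFP. Over all tested probes, 9.81% were called higher and 11.2% lower in the former line and 11.1% and 17.5% in the latter. The median log2 difference over the 34 genes was 0.59 and 0.46. Of these genes 15 were called in the same direction in both lines, 14 higher and 1 lower. By the mean of both lines, the largest rises among genes called in both were those of PLAA, a ubiquitin-binding VCP partner, at 1.56 and 1.35 (adjusted p = 9.25e-05 and 0.000147), of NSFL1C, the p47 adaptor used in membrane fusion, at 1.52 and 0.91 (adjusted p = 3e-04 and 0.00416), and of UFD1. The one gene called lower in both lines was UBXN2A, another UBX-domain adaptor, at -0.81 in each (adjusted p = 0.0121 and 0.00971). The LP-1-cIAP2-eGFP values without the dim array were 1.48 for PLAA, 1.14 for NSFL1C and -0.52 for UBXN2A. At 6 h 3 cofactor genes were called higher in each line, VCP, PLAA and SYVN1, a ubiquitin ligase of the endoplasmic reticulum, and none lower, where 1.26% and 0.762% of all tested probes were called higher. The count of calls at 24 h depended on single arrays and on the scaling. In LP-1-eGFP it was 13 in place of 21 without treated replicate 1 or without untreated replicate 2, and 12 with 75th percentile scaling. In LP-1-cIAP2-eGFP it was 11 in place of 17 without untreated replicate 2, and 4 with array weights.

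**Figure D4:**
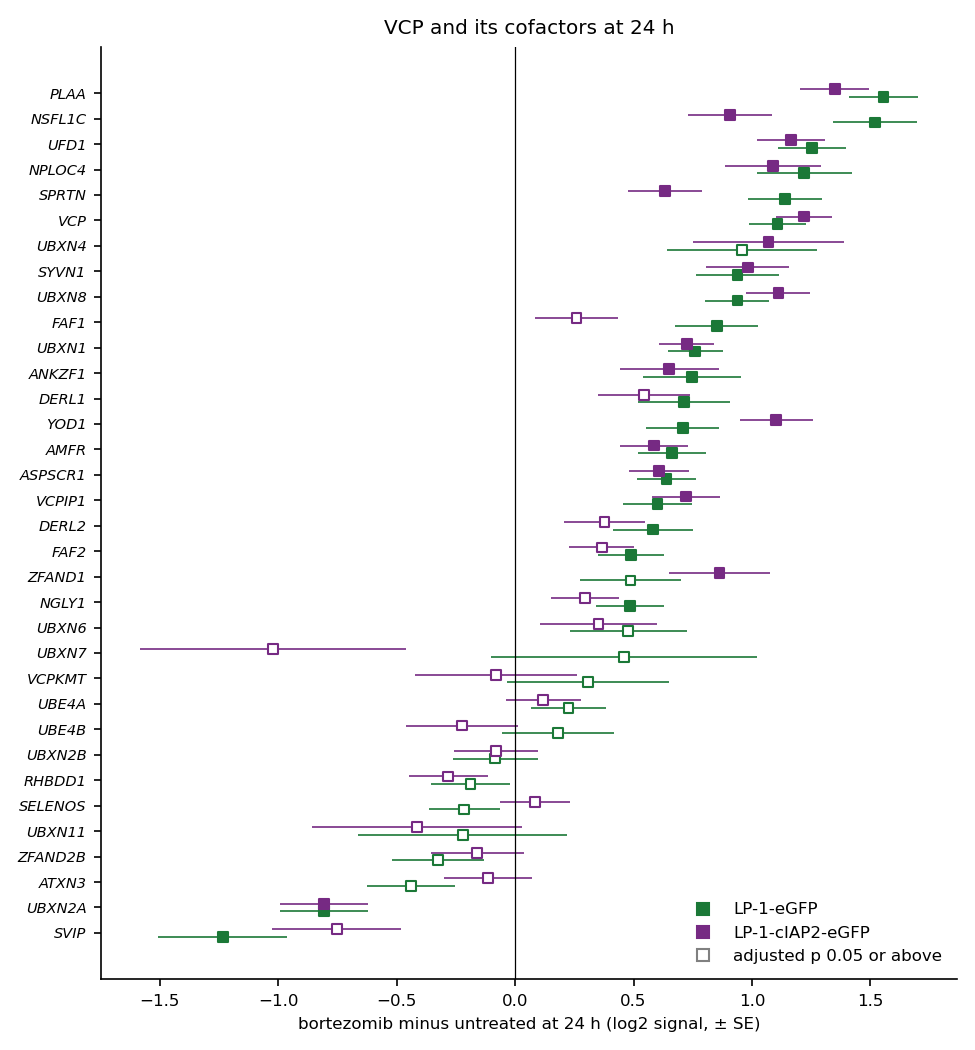
Log2 difference between bortezomib and untreated arrays at 24 h (x axis, with SE) for the 34 tested genes of VCP and its cofactors (y axis), ordered by LP-1-eGFP. Filled squares have an adjusted p under 0.05; VCP, UFD1 and NPLOC4 lie between 1.09 and 1.25, near PLAA and NSFL1C at the top, and UBXN2A and SVIP lie at the bottom.

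Between the lines 8 of the 34 cofactor genes were called, 4 in each direction, beside 9.84% of all tested probes called lower and 6.26% called higher. The share called lower was near that background. Lower in LP-1-cIAP2-eGFP, next to VCP, were SPRTN, a DNA-bound protein protease (log2 -0.81, adjusted p = 9.14e-05), UBXN2A (log2 -0.68, adjusted p = 0.000836) and PLAA (log2 -0.53, adjusted p = 0.00083). Higher were SVIP, a small VCP-binding inhibitor of endoplasmic reticulum-associated degradation (log2 1.10, adjusted p = 0.000436), and the deubiquitinase ATXN3 (log2 0.60, adjusted p = 0.00169). DERL2, of the degradation channel at the endoplasmic reticulum, and NGLY1, which removes sugar chains from proteins bound for degradation, were higher by 0.30 and 0.27 (adjusted p = 0.0379 and 0.0281).

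Of the 7 ZFAND genes 3 were called higher at 24 h in LP-1-eGFP, LP-1-cIAP2-eGFP had 4 such genes, and none was lower, beside 9.81% and 11.1% of all tested probes called higher. After ZFAND2A and ZFAND5 these were ZFAND3, at 1.41 and 1.16 (adjusted p = 0.0061 and 0.0132), and in LP-1-cIAP2-eGFP ZFAND1, a VCP and proteasome partner, at 0.86 (adjusted p = 0.016). ZFAND2B, the close relative of ZFAND2A, was at -0.33 and -0.16 and was not called. ZFAND4 was lower in LP-1-cIAP2-eGFP by the average over conditions (log2 -0.92, adjusted p = 0.0495), a call that was lost with the slide as a block (adjusted p = 0.213). In LP-1-cIAP2-eGFP the number of ZFAND genes called at 24 h was 2 without untreated replicate 2, when 6085 probes were called in place of 9631. It was 7 without treated replicate 2, which leaves the dim array alone in its condition, and then 17764 of the 33730 tested probes were called too. Leaving out the dim array instead put ZFAND3 at 1.69, ZFAND1 at 0.89 and ZFAND2B at 0.16.

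Over the 8 shuttle factors the median log2 difference at 24 h was -0.25 and -0.26, beside -0.03 and -0.16 over all tested probes. In LP-1-eGFP 1 was called higher and 1 lower, and the 8 values ran from -1.84, which was not called, to 1.18. In the other line 1 was called higher and 0 lower, and this number of calls went up when the dim array was left out. UBQLN1, a shuttle factor which like RAD23B joins a ubiquitin-like and a ubiquitin-binding domain, was called higher at 24 h in both lines, at 1.18 and 1.05 (adjusted p = 0.00238 and 0.00371), and was lower in LP-1-cIAP2-eGFP than in LP-1-eGFP (log2 -0.61, adjusted p = 0.00242). Of 13 genes for ubiquitin activation and recycling 4 were called higher and 2 lower at 24 h in LP-1-eGFP. The counts were 2 and 4 in LP-1-cIAP2-eGFP. Beside backgrounds of 9.81% higher and 11.2% lower in the former line and 11.1% and 17.5% in the latter, these counts say little about the list as a whole. PSMD14, the deubiquitinase subunit of the proteasome, rose by 1.72 and 1.40 (adjusted p = 5.03e-05 and 0.000108), UCHL1 rose by 0.61 and 0.53 (adjusted p = 0.00411 and 0.00716), and USP7 fell by 0.84 and 0.97 (adjusted p = 0.0037 and 0.00131). In LP-1-cIAP2-eGFP without the dim array UBQLN1 was at 1.34, PSMD14 at 1.55, UCHL1 at 0.53 and USP7 at -1.11. UBA1, the main ubiquitin-activating enzyme, was lower in LP-1-cIAP2-eGFP (log2 -0.32, adjusted p = 0.0271). The 6 calls among activation and recycling genes in LP-1-cIAP2-eGFP became 3 without untreated replicate 1 at 24 h. No gene of these lists was called for a difference between the lines in the bortezomib response.

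The pattern of each gene was described by Pearson's r over the 8 condition means, which share the same normalization and the 2 treatments. Among the 8 genes the highest r was 0.97, for NPLOC4 with ZFAND2A, VCP with ZFAND5, and UBB with each of ZFAND5 and ZFAND2A. UBB was at 0.945 with NPLOC4 and 0.937 with UFD1, and VCP with NPLOC4 was at 0.932. RPS27A had r between -0.03 and 0.41 with the others. Over 16392 symbols the closest patterns to UBB were those of PCYT1A, TSC22D3 and the proteasome subunit gene PSMD12 (r from 0.996 to 0.997), and to NPLOC4 those of KDM2A, JOSD1 and the proteasome subunit gene PSMD11 (r = 0.991, 0.991 and 0.991). Among the closest to ZFAND2A were LINC00662 and ZNF222 (r = 0.996 for each), to VCP INF2, PLOD3 and C17orf67 (r from 0.987 to 0.995), and to UFD1 GOLGB1, ZSCAN26 and RPAP3 (r = 0.997 for each). For ZFAND5 they were DCUN1D3, EIF3J and TM2D2 (r from 0.993 to 0.994), and for RAD23B the amino acid transporter gene SLC7A5, TM9SF3 and PAPOLA (r from 0.963 to 0.986). For RPS27A, whose level barely varied, they were COL4A6, PUM2 and RIMS2 (r from 0.959 to 0.971). COL4A6 and RIMS2 were dim, with mean log2 signals of 4.26 and 6.01, against 10.65 for PUM2, so little is read from these matches.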

How the data were processed

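One-colour Agilent arrays were scanned and read by the authors with Feature Extraction 10.7.3.1, giving deposited spot intensities, and the authors also deposited a table of normalized log2 values made in GeneSpring. From the scanner intensities (gProcessedSignal), outlier spots were left out, log2 values were averaged per probe and quantile normalized, as in the study's methods. A probe was tested where 1 condition or more had it well above background on each replicate (33731 of 50599 probes). Probe transcripts were named through RefSeq: 28174 probes carried a symbol. Condition means were fitted with limma 3.58.1 in R 4.3.3 and p-values were Benjamini-Hochberg adjusted over all tested probes. A gene was read from its tested probe with the highest mean signal. Lists were named by their largest changes shared by both lines at 24 h and by calls for the line difference. The genes, lists and tests were chosen with earlier results of these data known. SYVN1, ZFAND1 and ZFAND2B were named after their values were seen. Some genes of the lists and of the closest patterns are not reported here. The authors' table matched the arrays by title (r of at least 0.997 with the own array, at most 0.592 with others), and its centring and scale are otherwise unstated; its column medians are near 0. Alternatives were other scalings, filters, blocks, array weights and leaving out each array. Precision is limited by 2 arrays per condition. The scripts were tested on simulated data.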

Additional observations from a re-analysis of the deposited data

How the results depend on the processing

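Each of the 8 genes was recomputed in each comparison under 25 other settings, or 27 for the line difference, not counting values inside a slide. ZFAND2A in all 4 bortezomib comparisons, and VCP, UFD1 and ZFAND5 at 24 h in both lines, kept their direction and stayed called in each of the 25. NPLOC4 at 24 h stayed called in LP-1-eGFP and was lost in LP-1-cIAP2-eGFP with array weights alone (adjusted p = 0.0671). The line differences of VCP and ZFAND5 were lost only in the comparison of 8 against 8 arrays, where 0 of the 8 genes and 2175 probes were called in place of 2 and 5428. The call of UBB at 24 h in LP-1-cIAP2-eGFP was lost in 20 of 25 settings. The cause was not tested for any change listed here.

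The replicate numbers paired the samples weakly at most. Over 28 pairs of conditions the correlation of same-numbered deviations ran from -0.11 to 0.24 (median 0.04), and 7 of them were over 0.1. Single genes could still differ by replicate number. UBB read higher in replicate 2 than in replicate 1 in every condition, and the brightest RAD23B probe read higher in replicate 1. With the replicate block NPLOC4 at 6 h in LP-1-cIAP2-eGFP (adjusted p = 0.0354), UBB at 24 h in LP-1-eGFP (adjusted p = 0.0271), and RAD23B on its brightest probe at 6 h in LP-1-eGFP (adjusted p = 0.0421) and for 24 h against 6 h (adjusted p = 0.024) became called, and none of the 8 genes lost a call. The replicate block left every count for the 8 genes within 1.5 times and called 0 probes for the line-by-bortezomib difference at 6 h and 15 at 24 h, in place of 1 and 24. That same 6 h count was 0 with 75th percentile scaling, normexp, no filter, detection on all arrays and the slide block, and 5 with array weights. The 24 h count was 9 with 75th percentile scaling, the authors' values, the slide block and averaged probes, 71 with normexp, 80 with detection on all arrays and 0 with array weights.

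At 6 h in LP-1-eGFP 659 probes and 3 of the 8 genes were called. These were 235 probes without a filter, 270 with the slide block and 379 when 2-fold was also asked; 1709 probes and 6 genes with detection on all arrays; and 5390 probes and 7 genes with array weights. At 6 h in LP-1-cIAP2-eGFP 366 probes and 3 genes became 218 probes with 75th percentile scaling and 133 with the slide block, 154 probes and 1 gene without a filter, 998 and 5 with detection on all arrays, and 1606 and 5 with array weights, while 1 gene passed with the 2-fold limit. At 24 h the 2-fold limit left 4043 probes in LP-1-eGFP. It left 6263 in LP-1-cIAP2-eGFP, where array weights left 2988. The slide block called 3104 probes for the line difference. For 24 h against 6 h, UFD1 and ZFAND5 were called. With 75th percentile scaling both were lost and 1 gene, RAD23B, was called on its brightest probe (-0.65, adjusted p = 0.0301). Normexp left 1 gene, array weights left 1, and detection on all arrays gave 5.

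Leaving out 1 array at a time gave 1 to 5 genes and 70 to 2068 probes at 6 h in LP-1-eGFP, 1 to 4 genes and 84 to 1355 probes at 6 h in LP-1-cIAP2-eGFP, and 4416 to 10626 and 6063 to 17764 probes at 24 h. It gave 4043 to 12301 probes for the line difference, 0 to 6 and 0 to 9338 for the differences of response at 6 h and 24 h, and 2 to 5 genes and 3430 to 12097 probes for 24 h against 6 h.

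No value that changed sign was called under either setting. With 75th percentile scaling RPS27A was at 0.164 at 6 h in LP-1-cIAP2-eGFP and 0.109 at 24 h in LP-1-eGFP. For 24 h against 6 h RPS27A was then at -0.008, NPLOC4 at -0.098 and ZFAND2A at -0.006, and the 6 h line-by-bortezomib difference of UBB was 0.057. With normexp RPS27A was at -0.038 at 6 h in LP-1-eGFP, UBB at -0.05 for 24 h against 6 h, and the 24 h line-by-bortezomib differences were -0.172 for UBB and -0.107 for VCP. The slide block put the line difference of ZFAND2A at 0.006 and the 6 h difference of response of UBB at 0.028. Averaged probes put RAD23B at 0.367 at 24 h in LP-1-eGFP and the 6 h difference of response of UFD1 at 0.076. With single arrays left out, 24 h values ran from -0.098 to 0.053 for RPS27A and -0.205 to 0.052 for RAD23B in LP-1-eGFP, and from -0.014 to 0.185 for RPS27A in LP-1-cIAP2-eGFP. Line differences ran from -0.122 to 0.012 for NPLOC4 and -0.085 to 0.011 for ZFAND2A. Differences of response at 6 h ran from -0.164 to 0.09 for UBB, -0.096 to 0.003 for UFD1 and -0.189 to 0.103 for RAD23B. At 24 h they ran from -0.095 to 0.112 for UBB, -0.242 to 0.062 for UFD1, -0.401 to 0.136 for NPLOC4 and -0.056 to 0.33 for ZFAND2A.

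The 75th percentile scaling moved the median of all probes up by 0.23 for bortezomib at 24 h in LP-1-cIAP2-eGFP, 0.14 for the 24 h difference of response and 0.12 for 24 h against 6 h. The share of calls that were higher moved from 70.2% to 81.7% at 6 h in LP-1-cIAP2-eGFP. For the 24 h difference of response it was 66.7%, 77.8% with that scaling and 55.6% with the authors' values. Replicates came from biological repeats of 1 transduced line each, so the p-values measure the spread between those cultures.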
